A study of Mus musculus with 12 samples.

Results

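The 10 genes Fpr1, Fpr2, C5ar1, C3ar1, C3, Cfb, Cfp, C1qa, C1qb and C1qc encode formyl peptide receptors, anaphylatoxin receptors and complement proteins. They were taken by symbol from a table of 56748 genes counted in cultured mouse macrophages, and each symbol matched 1 row. RNA-seq was done on 12 libraries of bone-marrow-derived macrophages, which are grown from marrow of C57BL/6N mice over 7 days in medium conditioned by L929 fibroblasts, a source of the growth factor M-CSF. The 4 groups of 3 libraries were wild-type (WT) cells given 100 µM ADP-Hep for 4 h, WT cells given PBS for 4 h, Alpk1 knockout (KO) cells given 100 µM ADP-Hep for 4 h and KO cells given PBS for 4 h. ADP-Hep is ADP-heptose, a sugar nucleotide from the lipopolysaccharide synthesis of Gram-negative bacteria, and Alpk1 is the kinase that senses it and starts NF-κB signalling. The design asks which genes respond to ADP-Hep and whether the response differs without Alpk1. The labels give neither the part of Alpk1 that was deleted nor the number of mice.

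Complement is a cascade of plasma proteins that coats microbes with fragments of C3 and releases the anaphylatoxins C3a and C5a, which attract and activate phagocytes. C1q starts the classical pathway, factor B (Cfb) and properdin (Cfp) drive the alternative pathway, and C3a and C5a act on C3ar1 and C5ar1. Formyl peptide receptors detect peptides that carry the N-formyl group of bacterial and mitochondrial protein synthesis, and they share with C3ar1 and C5ar1 a signalling route through inhibitory G proteins. Macrophages are known to make C1q, C3 and properdin themselves.

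The 10 genes lie in a few places of the mm10 genome, in the GENCODE mouse release 21 annotation, and all are protein coding. Fpr1 spans chr17:17876471-17883940 on the minus strand and Fpr2 spans chr17:17887824-17893952 on the plus strand, so that the pair runs head to head with 3884 bases between the starts. C3 at chr17:57203970-57228136 and Cfb at chr17:34856374-34862518 are on the same chromosome, both on the minus strand. C5ar1 is at chr7:16246743-16259540, C3ar1 at chr6:122847138-122856161 and Cfp at chrX:20925454-20931555, all on the minus strand. C1qb, C1qc and C1qa follow each other on the minus strand within 18675 bases at chr4:136880129-136898803, with 3616 and 2851 bases between neighbours.

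The 4 genes with the steepest response in WT cells, described below, are shown with the 250 bases before their RefSeq start (build GRCm38.p6, 5′ to 3′ on the gene's strand). The windows are chr17:17883940-17884189 on the minus strand for Fpr1, chr17:17887574-17887823 on the plus strand for Fpr2, chr7:16259339-16259588 on the minus strand for C5ar1 and chr17:57228137-57228386 on the minus strand for C3. Capitals mark matches, on either strand, to a simplified NF-κB motif (GGG and CC with any 5 bases between them) and to the letters TTGCNNAA, a simplified C/EBP motif.
Fpr1: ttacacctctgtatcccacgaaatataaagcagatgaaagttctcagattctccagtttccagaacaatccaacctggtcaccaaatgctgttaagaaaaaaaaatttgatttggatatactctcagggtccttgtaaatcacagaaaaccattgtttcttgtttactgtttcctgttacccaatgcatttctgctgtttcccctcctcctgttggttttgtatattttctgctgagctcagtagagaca
Fpr2: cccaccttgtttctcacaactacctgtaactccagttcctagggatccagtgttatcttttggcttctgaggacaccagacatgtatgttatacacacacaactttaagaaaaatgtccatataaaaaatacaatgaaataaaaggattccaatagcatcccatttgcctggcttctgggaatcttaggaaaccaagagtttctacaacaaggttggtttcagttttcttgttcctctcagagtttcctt
C5ar1: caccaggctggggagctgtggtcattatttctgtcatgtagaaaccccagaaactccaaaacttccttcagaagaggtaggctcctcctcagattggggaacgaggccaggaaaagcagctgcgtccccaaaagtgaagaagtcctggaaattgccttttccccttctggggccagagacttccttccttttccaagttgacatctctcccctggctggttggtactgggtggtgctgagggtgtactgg
C3: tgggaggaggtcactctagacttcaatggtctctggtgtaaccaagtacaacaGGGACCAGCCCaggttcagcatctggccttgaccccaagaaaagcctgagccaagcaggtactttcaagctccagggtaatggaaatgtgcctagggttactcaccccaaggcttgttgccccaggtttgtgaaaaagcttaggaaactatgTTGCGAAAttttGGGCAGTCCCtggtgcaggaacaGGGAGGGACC
The C3 window held 4 matches to the NF-κB motif, which began 197, 196, 33 and 10 bases before the start, the first 2 of them overlapping. It also held 1 match to TTGCNNAA, which began 45 bases before the start. Neither motif was found in the windows of Fpr1, Fpr2 and C5ar1. The RefSeq start of C5ar1 lies inside its GENCODE span, so that most of the C5ar1 window falls within that span. Of 32851 RefSeq windows of the same length, 45.8% held the NF-κB motif and 9.56% held TTGCNNAA. Among 3 further motifs searched on both strands, the interferon-stimulated response element (GAAA and GAAA with any 2 bases between them) was in 2.98% of all windows, TGANTCA (AP-1) in 6.75% and GAGGAA (PU.1) in 23.3%. The Fpr2 window held GAGGAA once, 19 bases before the start, and the windows of Fpr1, C5ar1 and C3 held none of these 3. In the other windows, C3ar1 held the NF-κB motif and TGANTCA once each, at 14 and 22 bases. Cfp held the NF-κB motif once, at 10 bases. C1qb and C1qc each held 2 overlapping matches to the NF-κB motif and 1 to GAGGAA. Sequence windows of C1qa and Cfb were not used here. A match is a description of letters and no evidence that a factor binds.

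Library totals ran from 16110654 to 31333973 counts. From one row of the table on, the KO columns sat 1 row below their identifiers, so that the 37542 rows above it were used, and these held 71.3 to 85.2% of each library's counts and all 10 genes. Levels are given as CPM, the count as a share of all counts of the 12261 genes tested, on a common scale, with libraries scaled by TMM. Differences are log2 fold changes ± SE from edgeR's quasi-likelihood model, and a gene was called when its Benjamini-Hochberg adjusted p over 12261 tested genes was under 0.05. Alpk1 averaged 21.1 ± 1.70 CPM in KO ADP-Hep libraries and 53.8 ± 1.48 CPM in WT ADP-Hep libraries, and 21.3 ± 1.02 CPM in KO PBS libraries and 29.4 ± 3.19 CPM in WT PBS libraries (SD, n = 3 each). It was lower in KO cells under both treatments, by log2 differences of -1.34 ± 0.07 with ADP-Hep (adjusted p = 1.47e-14) and -0.45 ± 0.08 with PBS (adjusted p = 0.00037), and reads of the gene remained. Of 10 macrophage markers, all were tested. Their summed level lay between 29208 and 30063 CPM in the WT ADP-Hep group and between 25420 and 27361 CPM in the WT PBS group. The KO ADP-Hep group lay between 26505 and 27236 CPM and the KO PBS group between 27313 and 28155 CPM. The T cell markers Cd3e and Cd3g and the mast cell or basophil marker Mcpt8 had 0 counts in all libraries. Of 5 progenitor markers, 3 were tested. With ADP-Hep all 3 were lower in WT cells (31.6% of all genes tested) and 2 in KO cells (15.3%). Their summed level lay between 4.46 and 4.89 CPM in WT cells with ADP-Hep, against 22.0 to 23.4 CPM with PBS. In KO cells it lay between 14.8 and 16.2 CPM with ADP-Hep, against 17.6 to 19.8 CPM with PBS. Sox4, a transcription factor, made up most of the sum in all groups but WT ADP-Hep, with a mean of 1.60 CPM in WT ADP-Hep and 18.7 CPM in WT PBS libraries, and of 12.9 CPM in KO ADP-Hep and 15.5 CPM in KO PBS libraries. The part of progenitors in the results was not tested.

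Some of these genes are also neutrophil genes, and marrow cultures can hold neutrophils. Of 12 neutrophil markers, 9 were tested. Their summed level lay between 300.2 and 319 CPM in the WT ADP-Hep group and between 323 and 356 CPM in the WT PBS group, and between 269 and 279.6 CPM in the KO ADP-Hep group and 342 and 369 CPM in the KO PBS group. Mmp8 and Csf3r made up most of this sum in every group. In WT cells 3 of the 9 were called higher with ADP-Hep (Camp, S100a9 and Ngp) and 2 lower (Mmp8 and Csf3r). Over all genes tested, 31.9% were higher and 31.6% lower. In KO cells 0 were higher and 5 lower (Camp, S100a9, Ngp, Ltf and Csf3r), with 13.7% and 15.3% of all genes. The WT response was larger for 4 (Camp, S100a9, Ngp and Ltf) and smaller for 1 (Mmp8), with 24.6% and 24.9% of all genes. Between KO and WT cells, 1 of the 9 was higher and 7 were lower with ADP-Hep (32.8% and 32% of all genes). With PBS, 2 were higher and 2 lower in KO cells (5.57% and 5.82% of all genes). Ly6g, which defines mature neutrophils, averaged 0.173 CPM in WT ADP-Hep and 0.104 CPM in WT PBS libraries, and 0.0402 CPM in KO ADP-Hep and 0.0249 CPM in KO PBS libraries. The part of such cells in the results for Fpr1, Fpr2 and C5ar1 was not tested. Fewer cells of a type and less RNA per cell cannot be told apart in these bulk libraries.

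In WT cells ADP-Hep raised 8 of the 9 tested genes and lowered 0. Over all genes tested, 31.9% were called higher and 31.6% lower, 63.5% in all. The 3 stimulated and 3 unstimulated libraries did not overlap for 8 of the 9 genes (all but C1qb) and for 65.9% of all genes tested. The steepest responses were those of the formyl peptide receptors, then C3 and C5ar1, while C3ar1, Cfp, C1qa and C1qb moved by less than 0.5 on the log2 scale. C1qc was not called. The median response of the 9 genes was 0.42 on the log2 scale, against -0.01 over all genes tested. In KO cells 4 of the 9 genes were called higher and 0 lower, where 13.7% of all genes were called higher and 15.3% lower, 28.9% in all, and the median was 0.08 against 0.01. The KO libraries did not overlap for 5 of the 9 genes (Fpr1, Fpr2, C5ar1, C3ar1 and C1qc) and for 42.1% of all genes. The response was larger in WT than in KO cells for 7 of the 9 genes by the test of the difference itself and smaller for 0, where 24.6% of all genes had a larger and 24.9% a smaller WT response, 49.5% in all. Cfb had too few counts to be tested.

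**Figure D1:**
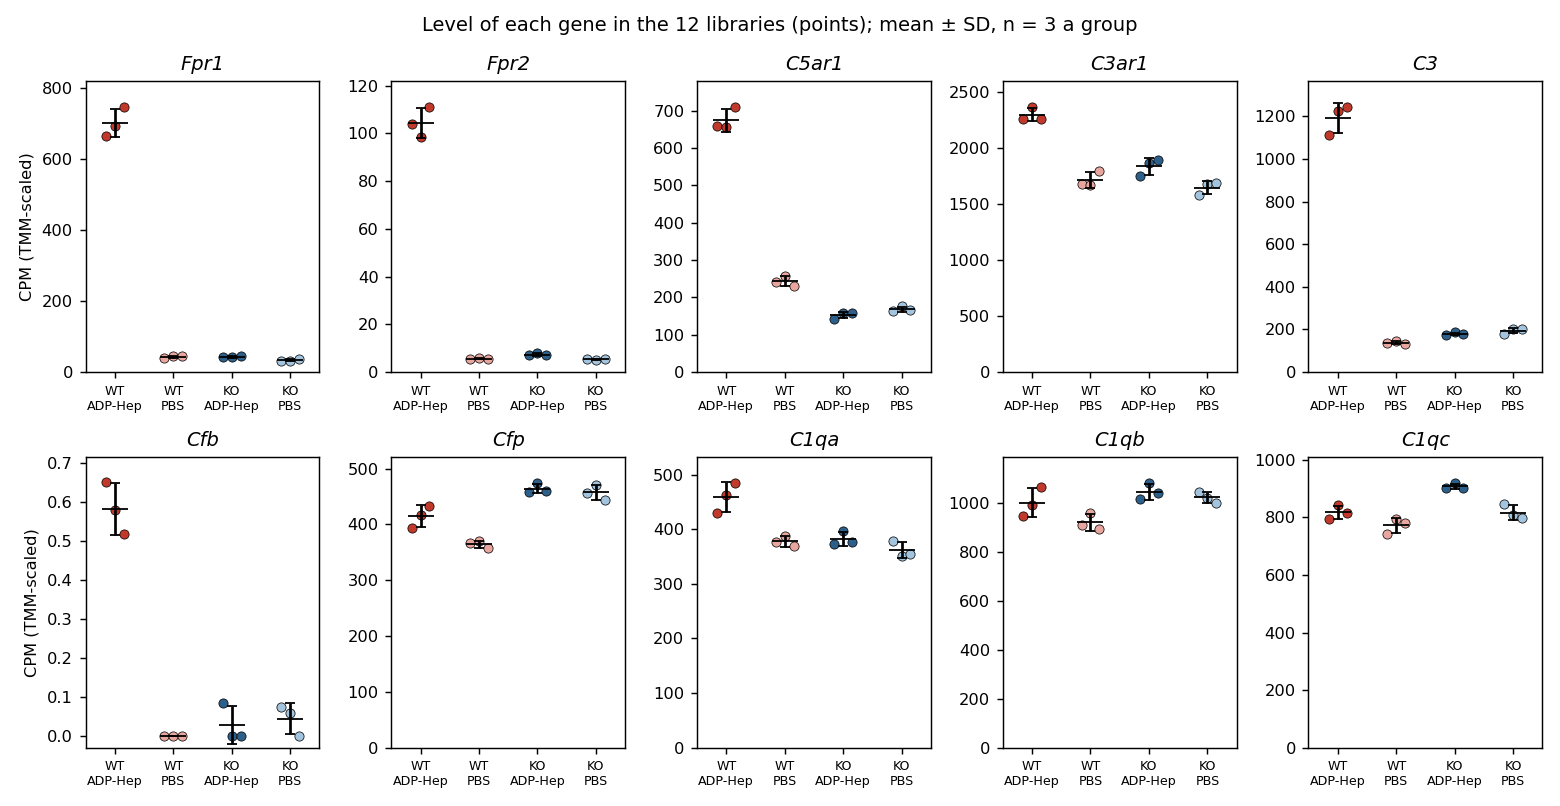
Level of each of the 10 genes in every library (points), in CPM, with the mean and SD of the 3 libraries of each group. The axes start at 0 and differ between genes (that of Cfb starts just below 0 so that its zeros show). Fpr1, Fpr2, C5ar1, C3 and Cfb stand apart in the 3 WT ADP-Hep libraries, whereas the groups lie closer together for C3ar1, Cfp and the C1q genes.

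Fpr1 encodes the high-affinity formyl peptide receptor. It was at 666, 691 and 745 CPM in WT ADP-Hep libraries, against 40.0, 43.8 and 43.8 CPM in WT PBS libraries. The lowest stimulated library was far above the highest unstimulated one. The response was 16.4-fold (95% interval 15.0 to 18.0), or 4.04 ± 0.06 on the log2 scale (adjusted p = 4.37e-25), rank 60 of 12261 genes from the highest. KO ADP-Hep libraries held 41.9, 41.2 and 46.5 CPM of Fpr1, against 31.4, 31.3 and 36.4 CPM in KO PBS libraries. The groups did not overlap in KO cells either, but the response was 1.31-fold, or 0.39 ± 0.07 (adjusted p = 0.000108). The WT response exceeded the KO response by 3.64 ± 0.09 on the log2 scale (adjusted p = 2.62e-20).

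Fpr2 encodes the formyl peptide receptor with the broader ligand range, which includes host proteins such as annexin A1 and serum amyloid A. Its level was 104, 98.4 and 111 CPM in WT ADP-Hep libraries, against 5.47, 5.91 and 5.44 CPM in WT PBS libraries. Every stimulated WT library was above all 9 others. The response was 18.7-fold (95% interval 16.7 to 20.8), or 4.22 ± 0.08 on the log2 scale (adjusted p = 4.19e-24), rank 51 from the highest. In KO cells Fpr2 was at 7.06, 7.86 and 6.97 CPM with ADP-Hep, against 5.44, 4.85 and 5.48 CPM with PBS. These groups did not overlap, and the KO response was 0.47 ± 0.11 (adjusted p = 0.00289). The responses of the genotypes differed by 3.76 ± 0.15 (adjusted p = 1.81e-16). Of the 50-base stretches of Fpr2 transcripts, 31.5% also occur in other genes, mostly the pseudogene Gm5966, so that its count depends on how such reads were assigned.

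The pair kept a similar proportion in all groups. Per kilobase of exon, Fpr1 stood above Fpr2 by a ratio of 6.26 to 6.88 in WT cells with ADP-Hep and 7.17 to 7.88 with PBS, and 5.13 to 6.53 in KO cells with ADP-Hep and 5.65 to 6.51 with PBS. The WT ADP-Hep and WT PBS ranges of this ratio did not overlap, and the KO ranges did. The other formyl peptide receptors of the mouse were near or at 0. Fpr-rs3, Fpr-rs4, Fpr-rs6 and Fpr-rs7 had 0 counts in every library and Fpr3 had 3 counts in 1 WT ADP-Hep library. The symbol Fpr-rs5 was not among the rows used, so its level is not known here.

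C5ar1, the receptor through which C5a attracts phagocytes, was at 658, 656 and 709 CPM in WT ADP-Hep libraries, against 242, 257 and 231 CPM in WT PBS libraries. The groups were well separated, and the response was 2.77-fold (95% interval 2.57 to 2.99), or 1.47 ± 0.05 on the log2 scale (adjusted p = 2.49e-18). In KO cells the values were 142, 159 and 157 CPM with ADP-Hep, against 162, 176 and 165 CPM with PBS. All 3 stimulated KO libraries were below the unstimulated ones, but the difference of -0.14 ± 0.05 was not called (adjusted p = 0.0555). It was called, at -0.14 to -0.16, when the fit held the KO groups alone, when genes needed at least 1 CPM in 3 libraries, or without any 1 of WT PBS replicates 2 and 3, WT ADP-Hep replicate 3 and KO ADP-Hep replicate 3. The genotypes' responses differed by 1.61 ± 0.07 (adjusted p = 2.65e-15).

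C3ar1, the C3a receptor, was already abundant and moved less. Its level was 2265, 2364 and 2264 CPM in WT ADP-Hep libraries, against 1676, 1669 and 1799 CPM in WT PBS libraries, which did not overlap. The response was 1.34-fold (95% interval 1.25 to 1.43), or 0.42 ± 0.05 (adjusted p = 1.48e-08). KO ADP-Hep libraries held 1755, 1867 and 1899 CPM, against 1579, 1676 and 1687 CPM in KO PBS libraries, again without overlap. This response of 0.16 ± 0.05 was called (adjusted p = 0.0107), but not without KO PBS replicate 1 or without the KO ADP-Hep library that carries no replicate number. The difference between the responses was 0.26 ± 0.07 (adjusted p = 0.00165), and with scaling by library totals alone it was 0.11 and not called.

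The balance of the anaphylatoxin receptors differed between all 4 groups. Per kilobase of exon, the ratio of C3ar1 to C5ar1 lay between 1.91 and 2.15 in WT cells with ADP-Hep, against 3.88 to 4.64 with PBS. In KO cells it lay between 7.02 and 7.36 with ADP-Hep, against 5.68 to 6.11 with PBS. No 2 groups overlapped, and C3ar1 was above C5ar1 in every library.

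**Figure D2:**
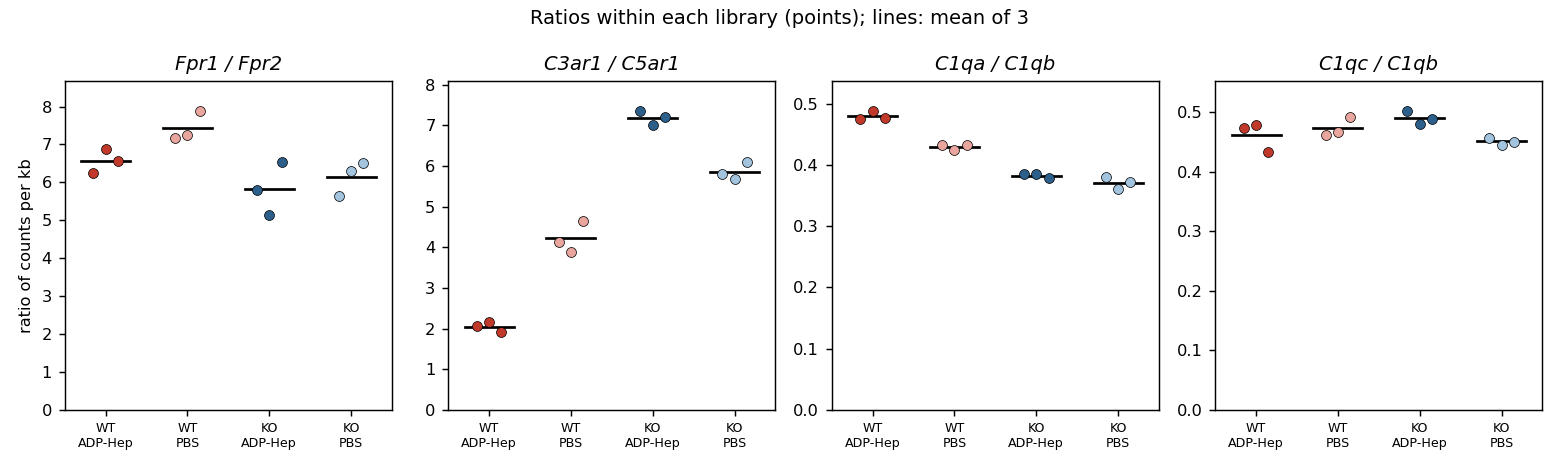
Ratios of counts per kilobase of exon within each library (points), with the mean of the 3 libraries of each group (lines); every axis starts at 0. The ratio of C3ar1 to C5ar1 was lowest in WT ADP-Hep libraries, at 1.91 to 2.15, and highest in KO ADP-Hep libraries, at 7.02 to 7.36, while the ratio of C1qc to C1qb stayed between 0.432 and 0.502.

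C3 is the protein on which all complement pathways converge. In WT ADP-Hep libraries it was at 1111, 1225 and 1241 CPM, against 137, 146 and 131 CPM in WT PBS libraries. The stimulated WT libraries were the highest of all 12. The response was 8.64-fold (95% interval 7.96 to 9.38), or 3.11 ± 0.06 on the log2 scale (adjusted p = 5.83e-24), rank 115 from the highest. KO ADP-Hep libraries held 175, 186 and 177 CPM, against 179, 200.2 and 201 CPM in KO PBS libraries. These ranges overlapped, and the difference of -0.11 ± 0.05 was not called (adjusted p = 0.13). It was -0.16 and called without KO PBS replicate 1. The WT response exceeded the KO response by 3.22 ± 0.08 (adjusted p = 9.11e-21).

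Cfb encodes factor B, the serine protease that forms the C3 convertase of the alternative pathway. It was counted 16, 13 and 6 times in WT ADP-Hep libraries and 0 times in each WT PBS library. KO ADP-Hep libraries had 2, 0 and 0 counts, and KO PBS libraries had 1, 1 and 0. For the ratio of WT ADP-Hep to WT PBS cells, with libraries scaled, 3 counts, the limit that a count of 0 allows, replaced the 0 counted. The ratio was then 10.5. The 95% counting interval of the ratio to the observed 0 counts started at 8.14 and had no upper limit. Against KO ADP-Hep cells the ratio to the 2 counts observed was 16.9 (95% interval 4.35 to 145). With 3 counts in their place, as for WT PBS, it was 11.3. These limits cover counting error only. With no filter beyond 1 count the gene entered the fit and was called in WT cells (adjusted p = 4.37e-07), and so was the difference between the responses (adjusted p = 0.013). Of its 2825 exon bases, 2246 (79.5%) are shared with the read-through gene Gm20547 on the same strand, which had 0 counts in all libraries, so that reads from these bases may have been left uncounted and its level is uncertain.

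Cfp encodes properdin, which stabilises the alternative convertase. It was at 394, 417 and 434 CPM in WT ADP-Hep libraries, against 367, 369.8 and 358 CPM in WT PBS libraries, without overlap. The response was 0.18 ± 0.04 (adjusted p = 0.000727), and with scaling by library totals alone it was 0.07 and not called. In KO cells Cfp was at 458, 474 and 461 CPM with ADP-Hep, against 457, 471 and 444 CPM with PBS. The KO groups overlapped, and the difference was 0.02 ± 0.04 (adjusted p = 0.767). The difference between the responses, 0.16 ± 0.06 (adjusted p = 0.0314), was called but not held when single libraries were left out, in 6 of 12 such fits, nor with library totals.

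The C1q genes encode the chains of the molecule that binds antibody and apoptotic cells. C1qa was at 431, 463 and 484 CPM in WT ADP-Hep libraries, against 376, 388 and 369 CPM in WT PBS libraries. The groups did not overlap, and the response was 1.21-fold, or 0.28 ± 0.05 on the log2 scale (adjusted p = 1.47e-05). In KO cells it was at 373, 397 and 376 CPM with ADP-Hep, against 379, 352 and 355 CPM with PBS, which overlapped, and the difference of 0.08 ± 0.05 was not called (adjusted p = 0.245). The responses differed by 0.20 ± 0.07 (adjusted p = 0.0152). That call was lost without KO PBS replicate 1 and with scaling by library totals alone, where the difference was 0.17 and 0.05.

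C1qb was at 947, 992 and 1063 CPM in WT ADP-Hep libraries, against 908, 958 and 893 CPM in WT PBS libraries. The groups overlapped, and the response of 0.12 ± 0.05 (adjusted p = 0.0268) was not called without WT ADP-Hep replicate 3 (0.07), without WT PBS replicate 1 (0.11) or 3 (0.10), in a fit of the WT groups alone (0.11) or with library totals alone (0.01). KO ADP-Hep libraries held 1015, 1079.5 and 1039.7 CPM, against 1044, 1021 and 999.8 CPM in KO PBS libraries, which overlapped (0.03 ± 0.05, adjusted p = 0.651).

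C1qc was at 795, 843 and 815 CPM in WT ADP-Hep libraries, against 744, 793 and 779 CPM in WT PBS libraries. The WT groups did not overlap, but the difference of 0.08 ± 0.04 was not called (adjusted p = 0.0951), and with library totals it was -0.03. In KO cells C1qc was at 904, 919 and 901 CPM with ADP-Hep, against 847, 807 and 798 CPM with PBS. The stimulated KO libraries were all higher, by 0.15 ± 0.04 (adjusted p = 0.00871). For neither C1qb (0.09 ± 0.07, 95% interval -0.05 to 0.23) nor C1qc (-0.07 ± 0.06, 95% interval -0.19 to 0.06) was the difference between the responses called. With library totals alone these differences were -0.07 and -0.22, and that of C1qc was called.

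**Figure D3:**
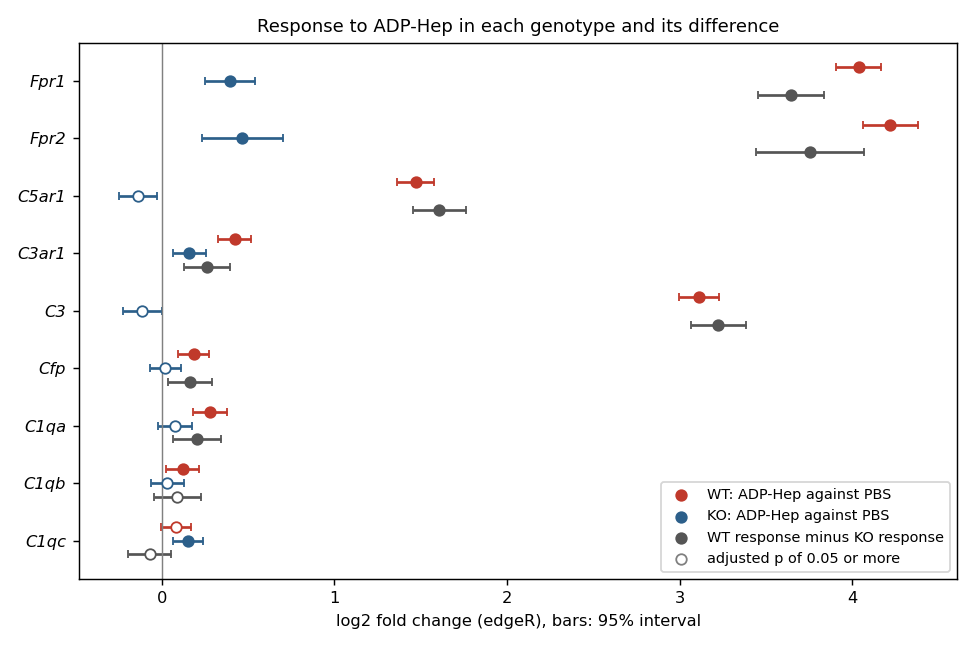
Log2 fold change of ADP-Hep against PBS in WT and in KO cells, and WT response minus KO response, for the 9 tested genes; points are edgeR estimates, bars are 95% intervals, and open points had an adjusted p of 0.05 or more. Fpr1, Fpr2, C3 and C5ar1 lie at 1.47 to 4.22 in WT cells and at -0.14 to 0.47 in KO cells.

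The chains of C1q differed in how evenly they moved. Per kilobase of exon, the ratio of C1qa to C1qb was 0.476 to 0.488 in WT cells with ADP-Hep and 0.424 to 0.433 with PBS, and 0.378 to 0.385 in KO cells with ADP-Hep and 0.360 to 0.380 with PBS. The WT ranges were apart from each other and above both KO ranges, and the KO ranges overlapped. For C1qc to C1qb, the ratio was 0.432 to 0.479 in WT cells with ADP-Hep and 0.462 to 0.491 with PBS, and 0.480 to 0.502 in KO cells with ADP-Hep and 0.445 to 0.457 with PBS. Here the WT ranges overlapped and the KO ranges did not. The summed level of the 3 C1q genes lay between 2173 and 2363 CPM in WT cells with ADP-Hep, against 2029 to 2139 CPM with PBS. In KO cells it lay between 2292 and 2396 CPM with ADP-Hep, against 2153 to 2269.6 CPM with PBS.

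Unstimulated cells of the genotypes already differed. Between KO PBS and WT PBS libraries, 3 of the 9 genes were called higher (C3, Cfp and C1qb) and 2 lower (Fpr1 and C5ar1), where 5.57% of all genes were called higher and 5.82% lower, 11.4% in all. The PBS libraries of the genotypes did not overlap for 6 of the 9 genes, against 27.7% of all genes. C3 was 0.49 ± 0.06 higher in KO cells on the log2 scale (adjusted p = 8.21e-07), with 179 to 201 CPM in KO PBS and 131 to 146 CPM in WT PBS libraries. Cfp was 0.33 ± 0.04 higher in KO cells (adjusted p = 1.05e-05). C5ar1 was lower in KO cells, with a difference of -0.53 ± 0.05 (adjusted p = 9.43e-08) and no overlap between 162 to 176 CPM in KO PBS and 231 to 257 CPM in WT PBS libraries. Fpr1 was lower by a log2 difference of -0.37 ± 0.07 (adjusted p = 0.000722). C1qb was 0.15 ± 0.05 higher (adjusted p = 0.0355), and that call was lost in 7 of the 12 fits that left out 1 library. Fpr2 (-0.09 ± 0.12, 95% interval -0.34 to 0.16), C3ar1 (-0.06 ± 0.05), C1qa (-0.06 ± 0.05) and C1qc (0.08 ± 0.04) were not called.

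After ADP-Hep, 2 of the 9 genes were higher in KO than in WT cells (Cfp and C1qc) and 6 were lower (Fpr1, Fpr2, C5ar1, C3ar1, C3 and C1qa), where 32.8% of all genes were called higher and 32% lower, 64.8% in all. The libraries did not overlap for 8 of the 9 genes and for 68.6% of all genes. These comparisons share their libraries with the responses above. On the log2 scale the differences were -4.02 ± 0.06 for Fpr1, -3.85 ± 0.07 for Fpr2, -2.74 ± 0.06 for C3 and -2.14 ± 0.05 for C5ar1. Those of C3ar1 and C1qa were -0.32 ± 0.05 (adjusted p = 1.3e-06) and -0.27 ± 0.05 (adjusted p = 3.06e-05). Cfp was 0.16 ± 0.04 higher (adjusted p = 0.00221) and C1qc was 0.15 ± 0.04 higher (adjusted p = 0.00333) in KO cells. C1qb was not called at 0.06 ± 0.05 (adjusted p = 0.249).

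**Figure D4:**
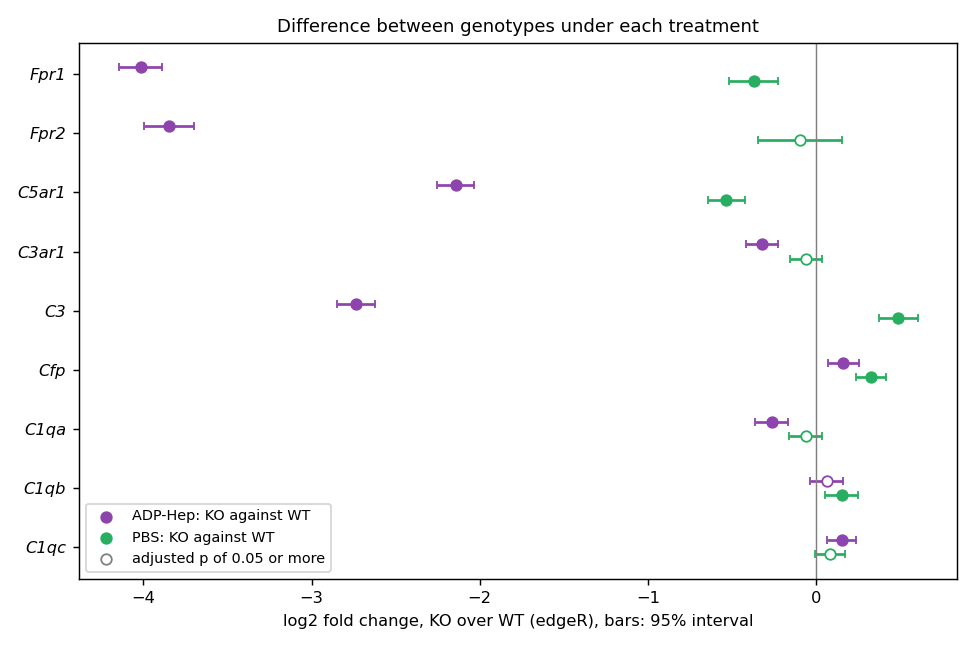
Log2 fold change of KO over WT cells after ADP-Hep and after PBS for the 9 tested genes; points are edgeR estimates, bars are 95% intervals, and open points had an adjusted p of 0.05 or more. C3 is higher in KO cells with PBS (0.49) and lower with ADP-Hep (-2.74), and Fpr1 and C5ar1 are lower in KO cells under both treatments.

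Per kilobase of exon the order of the genes changed with ADP-Hep. In WT ADP-Hep libraries C1qb was highest at 920 ± 53.7 CPM per kb, followed by C3ar1 at 534 ± 13.4, Fpr1 at 529 ± 30.5, C1qa at 442 ± 26.02 and C1qc at 423 ± 12.3 (SD, n = 3). Next came C5ar1 at 262 ± 11.6, Cfp at 239 ± 11.4 and C3 at 232 ± 13.8, then Fpr2 at 80.6 ± 4.82 and Cfb at 0.206 ± 0.0237 CPM per kb. Among these neighbours the libraries overlapped for C3ar1 and Fpr1, for C1qa and C1qc, and for Cfp and C3. In WT PBS libraries C1qb at 845 ± 30.8 CPM per kb was followed by C1qc at 399.9 ± 13.02 and C3ar1 at 398 ± 16.9, which overlapped, and by C1qa at 363 ± 9.47 and Cfp at 210.2 ± 3.65. C5ar1 was at 94.7 ± 4.99, Fpr1 at 32.1 ± 1.63, C3 at 26.9 ± 1.45 and Fpr2 at 4.33 ± 0.204 CPM per kb. The means of the unstimulated and stimulated KO groups shared 1 order, C1qb, C1qc, C3ar1, C1qa, Cfp, C5ar1, C3, Fpr1 and Fpr2. In it Fpr1 was at 32.6 ± 2.19 CPM per kb with ADP-Hep and 25.0 ± 2.22 with PBS. The KO ADP-Hep libraries of C3 (33.95 to 36.22 CPM per kb) and Fpr1 (31.09 to 35.12) overlapped. With the length of the longest transcript in place of all exons, C1qc was at 680 CPM per kb in WT ADP-Hep and 642 in WT PBS libraries. It then stood above C1qa, C3ar1 and Fpr1 and next after C1qb in both, so that its change of place depended on the length used.

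Of 92 other genes of the complement and chemoattractant pathways in 8 lists, 91 were in the rows used and 50 were tested. In WT cells ADP-Hep raised 22 and lowered 13 of them, and the WT response was the larger for 21 and the smaller for 11 by the test of the difference. In KO cells 6 were raised and 9 lowered. Over all genes tested, 63.5% were called in WT cells, 49.5% for the difference and 28.9% in KO cells. The list counts below for WT cells stand beside 31.9% of all genes called higher and 31.6% lower.

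The other initiating, alternative and terminal pathway genes were mostly silent. Of 15 genes of classical and lectin initiation 4 were tested, and 2 fell in WT cells, Fcna (ficolin A; -0.77 ± 0.18) and Colec12 (a scavenger receptor collectin; -0.60 ± 0.06). Colec12 was at 80.5 ± 1.09 CPM in WT ADP-Hep and 122 ± 7.63 CPM in WT PBS libraries (SD, n = 3). Of 8 genes of the alternative and terminal pathway C8g alone was tested, and at 1.26 ± 0.210 CPM in WT ADP-Hep and 1.63 ± 0.237 CPM in WT PBS libraries it was not called.

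Of 18 complement regulators 7 were tested, with 2 called higher and 1 lower in WT cells. Cd55, which speeds the decay of C3 convertases on the cell's own surface, was at 23.3 ± 0.132 CPM in WT ADP-Hep and 3.99 ± 0.239 CPM in WT PBS libraries, and at 10.1 ± 0.640 CPM in KO ADP-Hep and 7.37 ± 0.958 CPM in KO PBS libraries. Its WT response was 2.54 ± 0.10 and exceeded the KO response by 2.09 ± 0.15 (adjusted p = 1.74e-11).

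Among 10 other complement receptors 8 were tested, with 2 called higher and 2 lower in WT cells. C5ar2, the second C5a receptor, which couples poorly to G proteins, went the other way from C5ar1. It was at 6.17 ± 0.580 CPM in WT ADP-Hep and 15.7 ± 1.37 CPM in WT PBS libraries, and at 16.6 ± 0.650 CPM in KO ADP-Hep and 14.3 ± 0.914 CPM in KO PBS libraries. Its WT response was -1.36 ± 0.10 (adjusted p = 5.36e-12), below the KO response by a difference of -1.58 ± 0.13. Cd93, once described as a C1q receptor, fell in WT cells (-0.91 ± 0.05) and by less in KO cells (-0.44 ± 0.05). In WT cells the integrin chain Itgb2 (0.17 ± 0.04) and calreticulin (Calr, 0.21 ± 0.05) rose, though not with scaling by library totals alone. Neither Itgb2 nor Calr was called in KO cells.

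All 4 tested genes of 6 host ligands of formyl peptide receptors rose in WT cells, and the WT response was the larger for 3. Saa3, a serum amyloid A protein, was at 433 ± 33.2 CPM in WT ADP-Hep and 17.0 ± 1.11 CPM in WT PBS libraries, and at 58.6 ± 1.89 CPM in KO ADP-Hep and 52.4 ± 5.14 CPM in KO PBS libraries. Its WT response was 4.68 ± 0.07 and exceeded the KO response by 4.51 ± 0.10. Anxa1 (annexin A1) rose by 0.69 ± 0.05 and Camp (cathelicidin, also among the neutrophil markers) by 1.05 ± 0.19 in WT cells. In KO cells Anxa1 was not called (-0.04 ± 0.05) and Camp fell (-0.69 ± 0.22).

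Of 8 other chemoattractant receptors 5 were tested, and 4 rose in WT cells with a WT response larger than that of KO cells. They were Ccrl2, which binds chemerin without signalling (2.29 ± 0.08), Ccr1, a chemokine receptor (1.43 ± 0.09), Cmklr1, the signalling chemerin receptor (1.095 ± 0.11), and Ptafr, the receptor of platelet-activating factor (0.60 ± 0.04). In KO cells Ccrl2 (-1.06 ± 0.12) and Ptafr (-0.86 ± 0.05) fell, Ccr1 rose (0.75 ± 0.12) and Cmklr1 was not called (0.12 ± 0.12). All 21 listed genes of signalling downstream of such receptors were tested, with 10 higher and 8 lower in WT cells. Pik3r5, the regulatory subunit of the G protein-driven PI3 kinase, rose by 1.55 ± 0.07 in WT cells and fell in KO cells (-0.71 ± 0.07). Rgs2, which shortens G protein signals, fell in WT cells (-2.28 ± 0.07), and so did the G protein subunit Gng2 (-1.04 ± 0.05). Neither Rgs2 nor Gng2 was called in KO cells.

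**Figure D5:**
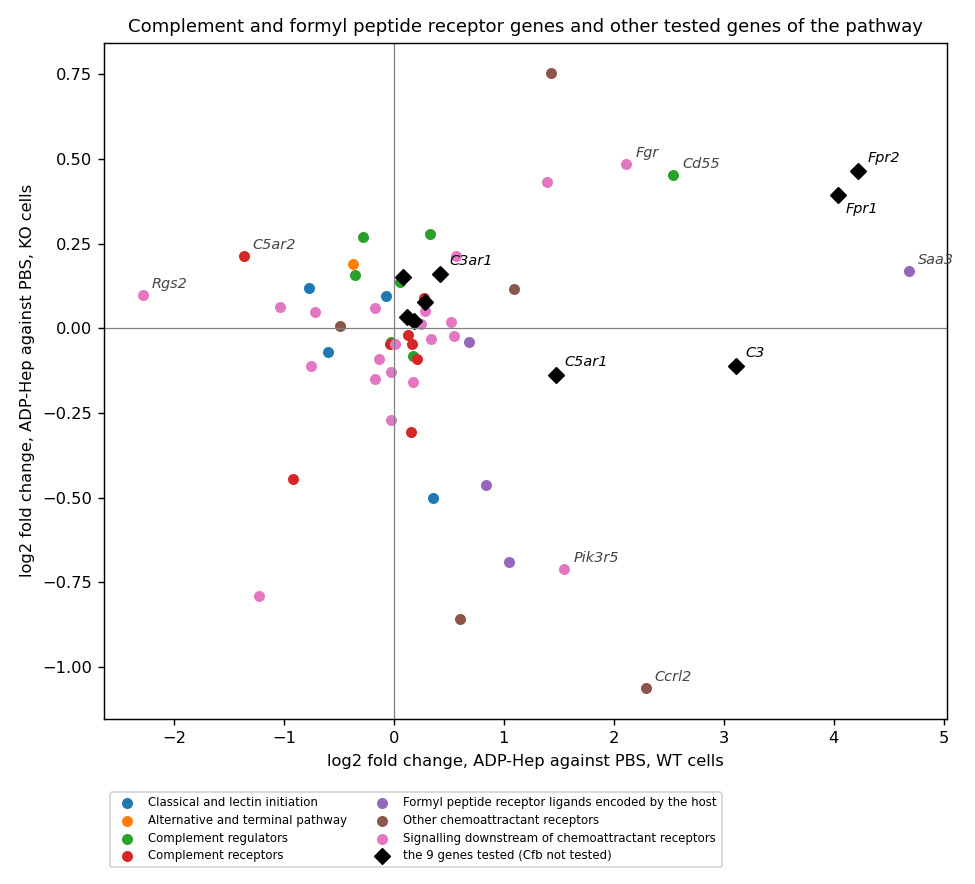
Log2 fold change of ADP-Hep against PBS in WT cells (horizontal) and KO cells (vertical; the axes differ in scale) for the 9 tested genes (diamonds) and the 50 tested genes of the other lists (circles, coloured by list). The WT responses run from below -2 for Rgs2 to 4.68 for Saa3, and Fpr1, Fpr2 and C3 lie at 3.11 to 4.22.

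For Fpr2, C3 and C1qa, the genes with the most similar pattern were sought among 9465 tested genes with a mean of at least 5 CPM, by the root mean square difference of 3 log2 values, those of the WT response, the KO response and KO PBS against WT PBS. Nearest to Fpr2 were Tarm1, an activating receptor of myeloid cells (0.22), Jdp2, a dimerisation partner of AP-1 proteins (0.27), and Ehd1, a protein of endocytic recycling (0.27). Nearest to C3 were Siglece, an inhibitory receptor for sialic acid (0.18), Cd38, an enzyme that consumes NAD (0.22), and the gelatinase Mmp9 (0.28). For C1qa the nearest, Gemin5, Rangap1 and Rad18, differed by no more than 0.01, where many genes with small changes lie close together. The 12 libraries are the same for all of these genes.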

How the data were processed

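RNA was sequenced from 12 macrophage libraries in 4 groups of 3, made with a stranded mRNA kit, per the labels' protocols. The values are raw counts of reads for each gene, in 1 table as the authors deposited it. The submitters' processing notes name STAR, RSEM, featureCounts, DESeq2, FastQC and Trim Galore, and mm10 and hg38 as builds; which made the counts, and with which strand setting and annotation, is not given in the sources used here. No per-sample column was left unassigned. One KO ADP-Hep column carries a number that matches no label and was used in its group without a replicate number. Nothing says that replicates came from separate cultures or mice, so p-values measure the spread between these samples, which may be technical. Chi-square per degree of freedom between replicates was 1.96 to 10.5 over all genes, so no pair matched within sampling noise.

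Mean levels of WT and KO libraries correlated at 0.996 over the rows used and at 0.0420 below the break, where they correlated at 0.979 once the KO columns were moved up by 1 row. The upper 37542 rows, which stop 100 rows short of the break, were used, and 19206 were not. Of the identifiers used, 37363 had the same symbol in GENCODE mouse release 21, from which coordinates and exon lengths came. One row had no identifier.

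The fit used edgeR 4.0.16 in R 4.3.3 (TMM, filterByExpr, 1 robust quasi-likelihood model of 4 group means, Benjamini-Hochberg adjustment over 12261 genes, threshold 0.05). The SE is the log2 fold change divided by the square root of F, and 95% intervals use the t quantile of the moderated degrees of freedom. The code was tested on simulated data. Alternatives, with limma 3.58.1 and DESeq2 1.42.0 among them, were other scalings, filters, tools, fits, lengths and row choices, a replicate block, and each library left out. The 10 genes and the other lists were chosen with earlier results of these data known. By rule, the text names the 10 genes and Alpk1. From each list it names up to 4 called genes with the smallest p for the difference between responses, or those of highest level if none was called. It also names the 3 genes outside the 10 that were nearest in pattern to Fpr2, C3 and C1qa. Some genes that this rule names are not reported here.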

Additional observations from a re-analysis of the deposited data

Results flagged for a closer look

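For 7 of the 9 tested genes the response to ADP-Hep differed between the genotypes by the interaction term of the edgeR model, which is what brought them here. Of all genes tested, 49.5% were called by that term, 24.6% with a larger and 24.9% with a smaller WT response. The WT response minus the KO response was 3.64 for Fpr1, 3.76 for Fpr2, 3.22 for C3 and 1.61 for C5ar1 on the log2 scale. These 4 differences kept their direction and stayed called under every alternative that was run. The differences of C3ar1 (0.26), C1qa (0.20) and Cfp (0.16) were small, and each lost its call under scaling by library totals alone.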

How the results depend on the processing

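Of 761 called values of the 9 tested genes and their differences recomputed under the alternatives, 725 stayed called in the same direction, and 0 changed direction. The WT responses of Fpr1 (3.93 to 4.08), Fpr2 (4.11 to 4.27), C3 (3.00 to 3.16) and C5ar1 (1.36 to 1.51) stayed called under each. Under scaling by library totals alone the median over all genes was -0.12 in WT cells, -0.16 for the difference between the responses and 0.17 for KO against WT cells with ADP-Hep, against -0.01, -0.01 and 0.01 with TMM. It left 4 of the 9 genes with a called larger and 1 (C1qc) with a called smaller WT response, against 7 and 0. Over all genes it called 2020 with a larger and 4507 with a smaller WT response, against 3018 and 3053. Values not called changed sign for the WT response of C1qc (-0.0299) and for the C1qb difference between responses (-0.06698), though both lay above these medians. In KO cells 0 of the 9 genes were called lower, against 1 (C5ar1) with at least 1 CPM in 3 libraries and with only the groups compared, and 0 to 1 when single libraries were left out, where without KO PBS replicate 1 that gene was C3. Over all genes 1870 were called lower in KO cells, against 1949 and 1946 in the first and second of these alternatives. Without single libraries it was 1406 to 1987. For KO PBS against WT PBS, 683 genes were called higher and 714 lower, against 1632 and 1518 with all rows as deposited, displaced ones included, and 438 to 772 and 391 to 793 when single libraries were left out, lowest without KO PBS replicate 1. With all rows and the KO columns moved up by 1 row, an alternative chosen after seeing the data, the same comparison called 642 and 690. Library totals alone called 2990 genes higher and 4927 lower in WT cells, against 3914 and 3871.

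Whether replicate numbers pair the samples was not settled. Deviations of same-numbered samples correlated between -0.42 and 0.20, over 0.1 in 6 of 15 pairs. The 39 other pairs correlated between -0.259 and 0.335. Each deviation is taken from a mean of 3 libraries, so these values cannot decide for or against pairing. With a replicate block on the 11 numbered libraries, 5 of the 9 genes had a called larger WT response, as those of C1qa (0.19) and Cfp (0.15) were not called, against 6 without the block in the same libraries. Over all genes, 2782 had a called larger and 2777 a called smaller WT response with the block, against 2847 and 2874 without it. KO PBS against WT PBS called 633 genes higher and 594 lower with the block. Levels per length moved with the longest transcript to 92.2 and 4.95 CPM per kb for Fpr2 and 254 and 223 for Cfp in WT ADP-Hep and WT PBS libraries. Cfb had 35 counts in WT ADP-Hep libraries, which limits its precision. Causes of these shifts were not tested.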
